A study of Mus musculus with 12 samples.

Results

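The genotype by differentiation interaction is the amount by which the transcriptional response to adipogenic induction differed between cells with and without Acly, gene by gene. It used the 12 RNA-seq libraries of the study, which form 4 groups of 3. The cells were SV40-immortalised preadipocytes of C57Bl/6 mouse adipose tissue, grown in DMEM with 10% FBS. The groups were Aclyf/f preadipocytes and Acly-/- preadipocytes, both taken on day 0, and Aclyf/f adipocytes and Acly-/- adipocytes, both taken 4 days after a cocktail that included rosiglitazone. Aclyf/f cells carry loxP-flanked Acly and served as the control, and every group shares the immortalisation. The method of deletion, the exons it removed and the origin of the replicates (cultures, clones or animals) were not given in the sources used here. Consequently, p-values describe no more than the spread among these 12 libraries. The response of a genotype was the adipocyte mean minus the preadipocyte mean of log2(FPKM + 1), where FPKM is fragments per kilobase of transcript, scaled to mapped fragments. The interaction was the Acly-/- response minus the Aclyf/f response, so a negative value means that a gene rose less, or fell more, in Acly-/- cells. Of 24341 genes in the table, 11777 had at least 1 FPKM in at least 3 libraries and were tested with limma.

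Acly encodes ATP citrate lyase, which splits citrate exported from mitochondria into oxaloacetate and acetyl-CoA in the cytosol and nucleus. That acetyl-CoA feeds fatty acid synthesis, sterol synthesis and protein acetylation, and acetate activated by Acss2 is the other main source. During adipogenesis, the transcription factors PPARgamma and C/EBPalpha turn on lipid storage genes while matrix, contractile and progenitor genes are turned off, and SREBP-1c and ChREBP (encoded by Mlxipl) drive the lipogenic enzymes.

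Relative depth, estimated from the step size of low FPKM values, spanned 1.93-fold, and 10977 to 11143 genes per library reached 1 FPKM. The third Acly-/- preadipocyte library stood apart: its 10 most abundant genes held 15.5% of its FPKM, against 6.21% to 9.07% in the others. Acly lay at 84.9 to 89.5 FPKM on day 0 and 722 to 814 on day 4 in Aclyf/f cells, and at 11 to 13.2 in the 6 Acly-/- libraries of both days, so its own rise was missing (interaction -3.08, SE 0.11, adjusted p = 6.87e-10). The 7 adipocyte markers summed to 1005 to 1075 FPKM on day 0 and 11210 to 12010 on day 4 in Aclyf/f cells, and to 592 to 660 and 6577 to 8113 in Acly-/- cells. Fabp4 and Lpl held most of each sum. On day 4 the Aclyf/f and Acly-/- means were 8835 and 6113 FPKM for Fabp4, and 1163 and 984.4 for Lpl. The other 5 differed more: Adipoq 543.7 and 60.73, Cfd 272.2 and 18.58, Slc2a4 93.66 and 11.65, Cidec 448.5 and 180.7, Plin1 195.5 and 98.36. Of the preadipocyte markers Pdgfra, Pdgfrb and Ly6a were present, and Cd34 and Dlk1 had group means of 1.08 FPKM or less. The leukocyte markers Ptprc, Itgam and Tyrobp lay at the lowest value in the table, 0.01, in all 12 libraries. In such bulk libraries, fewer cells of a type and less RNA per cell cannot be told apart.

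Differentiation responses were on the whole smaller without Acly. The interaction was called, at a Benjamini-Hochberg adjusted p under 0.05, in 5908 of the 11777 genes (50.2%). It was lower in Acly-/- cells in 3113 genes (26.4%) and higher in 2795 (23.7%), and 1459 genes (12.4%) had an absolute interaction of at least 1 on the log2 scale. Among the 1510 genes that rose by at least 1 in Aclyf/f cells, the Acly-/- response had a median of 50.1% of the Aclyf/f response, with quartiles of 29.2% and 71.6%. Among the 1256 genes that fell by at least 1, the median was 53.9%. Choosing genes by a large response favours a smaller value in the other genotype. The reverse choice gave no such difference: for the 727 genes that rose by at least 1 in Acly-/- cells the Aclyf/f response had a median of 112% of it, and for the 808 that fell the median was 105%.

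Each called gene was given a form from the calls of the 2 separate responses, of which the Aclyf/f response was called in 72.5% of genes tested and the Acly-/- response in 61.4%. A blunted response was called in both genotypes with the same sign and a smaller size in Acly-/- cells. This form held 1120 rises (9.51% of genes tested) and 987 falls (8.38%). The median blunted rise was 1.47 in Aclyf/f and 0.66 in Acly-/- cells, and the median blunted fall -1.47 and -0.67. A lost response was called in Aclyf/f cells and not in Acly-/- cells. It held 902 rises (7.66%) and 914 falls (7.76%), and a response that was not called is not shown to be absent. Blunted and lost genes together made up 3923 of the 5908 (66.4%).

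Fewer genes responded more strongly, or in another direction, without Acly. Exaggerated responses, called in both with the same sign and larger in Acly-/- cells, numbered 213 rises (1.81%) and 296 falls (2.51%). Gained responses, called in Acly-/- cells alone, numbered 366 rises (3.11%) and 449 falls (3.81%). Reversed responses, called in both genotypes with opposite signs, held 306 genes that rose in Aclyf/f cells (2.6%) and 269 that fell there (2.28%), and 86 genes (0.73%) had no called response in either. Reversed genes were 9.73% of all called genes and 19.8% of those with an absolute interaction of at least 1. Opposite responses add up in the interaction, so this size limit favours reversed genes by construction. The form counts were smaller with that size limit, for example 344 blunted rises, 202 lost rises and 147 reversed rises. A log2 interaction compares fold changes, and 72 of the called genes had the opposite sign when plain FPKM differences were compared, 47 of them blunted falls.

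**Figure D1:**
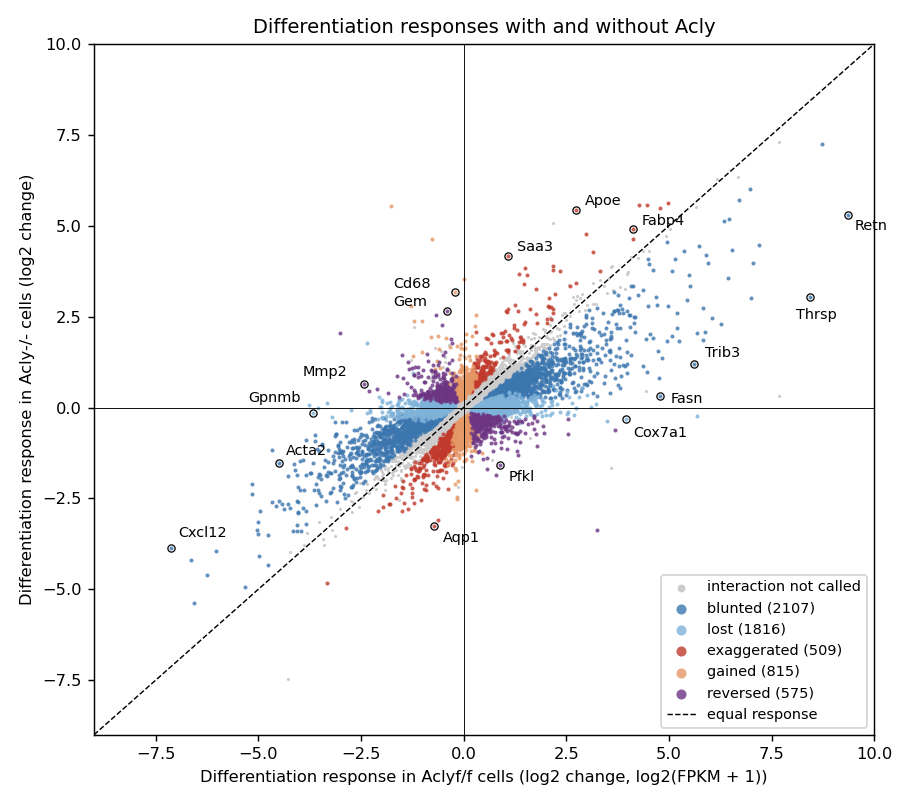
Each point is 1 of the 11777 genes tested, placed by its log2 change from preadipocyte to adipocyte in Aclyf/f cells (x axis) and Acly-/- cells (y axis). Colours give the form of the 5822 genes called in the interaction with a called response, and the dashed line marks equal responses. The 2107 blunted genes lie between that line and the horizontal axis and the 1816 lost genes on both sides of that axis, against 509 exaggerated, 815 gained and 575 reversed.

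By construction the interaction equals the genotype difference in adipocytes minus that in preadipocytes, so each called gene was also classed by where the genotypes differed. Of all genes tested, the genotype difference was called in 42.2% in preadipocytes and in 54.8% in adipocytes. The adipocyte end alone differed in 2532 genes (42.9% of those called), lower in Acly-/- adipocytes in 1468 and higher in 1064. The preadipocyte start alone differed in 1369 (23.2%). In 605 genes both stages differed in the same direction, in 215 neither difference was called, and in 1187 (20.1%) both stages differed in opposite directions. These crossing genes, 559 higher in Acly-/- preadipocytes and then lower in adipocytes and 628 the other way round, made up 45.7% of genes with an absolute interaction of at least 1. Opposite genotype differences add up in the interaction, so a size limit favours crossing genes by construction. The share of each class differed by form. The end alone differed in 52.7% of blunted rises and 36.2% of blunted falls, the start alone in 14.1% and 26.1%, and 52.8% of reversed falls were crossing. Exaggerated falls had the smallest crossing share of the called-response forms, 8.11%.

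**Figure D2:**
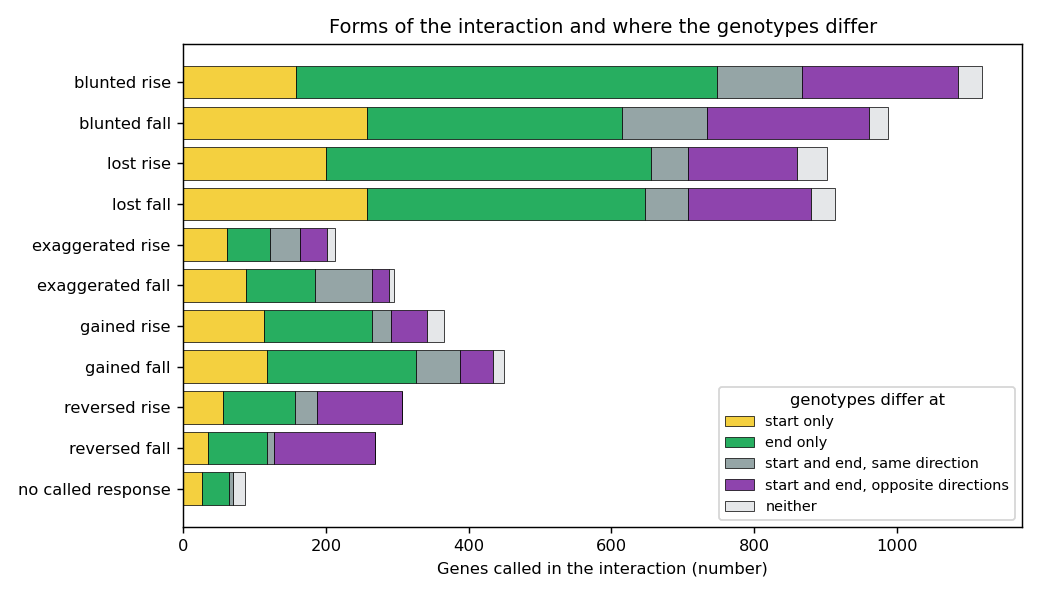
Bars give the number of genes of each form among the 5908 called in the interaction, and colours give the stage at which the genotypes differed. A difference at the adipocyte end alone is the most frequent class in the 4 blunted and lost forms, from 357 of 987 blunted falls to 590 of 1120 blunted rises, while crossing genes fill 142 of the 269 reversed falls.

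The lipogenic genes Thrsp and Fasn had the largest interactions among blunted rises. Thrsp (chr7:97412957-97417510 on mm10), a nuclear regulator of lipogenic enzymes, was at most 0.15 FPKM in the 6 preadipocyte libraries. It reached 423, 339 and 332 FPKM in Aclyf/f adipocytes, against 7.27, 7.07 and 8.83 in Acly-/- adipocytes. The genotypes started together and ended without overlap, and the interaction was -5.40 (SE 0.16, adjusted p = 1.99e-10). Fasn (chr11:120805958-120824547), fatty acid synthase, had 22.1, 22.6 and 21.2 FPKM in Aclyf/f preadipocytes and 673, 602 and 607 in Aclyf/f adipocytes. Acly-/- cells had 71.5, 70.1 and 84.2 FPKM on day 0 and 110, 105 and 72.4 on day 4. Acly-/- cells thus began above and ended below the control with no overlap at either stage, and their own day 0 and day 4 values overlapped. The Fasn interaction was -4.45 (SE 0.18, adjusted p = 1.51e-09). Its Acly-/- response of 0.33 (adjusted p = 0.0418) put it among the blunted rises, and 5 alternative settings, as well as leaving out any 1 of 8 of the 12 libraries, put it among the lost ones.

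Fatty acid synthesis and NADPH supply genes moved together. Of 21 members, all tested, 19 had a lower and 1 a higher called interaction, with a median of -1.75 against -0.02 over all genes tested. The called share was 95.2%, against 50.2% of all genes tested (26.4% lower and 23.7% higher). The same shares of all genes apply to the lists below. The median member rose by 2.71 in Aclyf/f cells and 0.61 in Acly-/- cells, and 15 were blunted rises. In 13 members the genotypes crossed. Of these, 12 were higher in Acly-/- preadipocytes and lower in Acly-/- adipocytes, and Idh1 was the reverse. Acss2, which makes acetyl-CoA from acetate, had 4.19, 4.5 and 4.83 FPKM in Aclyf/f preadipocytes and 14.2, 17.3 and 17.7 in Acly-/- preadipocytes. On day 4 it had 295, 278 and 273 FPKM in Aclyf/f and 79.0, 72.0 and 61.5 in Acly-/- cells. The order of the genotypes turned over without overlap, with an interaction of -3.64 (SE 0.14, adjusted p = 1.04e-09). The exception was Idh1, the cytosolic NADP-dependent isocitrate dehydrogenase. It rose from 101 ± 1.32 to 204 ± 3.74 FPKM (SD, n = 3) in Aclyf/f cells and from 67.2 ± 3.48 to 291 ± 12.9 in Acly-/- cells, an interaction of 1.10 (SE 0.09, adjusted p = 4.33e-07).

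Mature adipocyte genes were blunted too, but mostly from an equal start. Of 37 members 35 were tested, and 24 had a lower and 5 a higher called interaction (82.9% called, median -1.02). The median response was 4.07 in Aclyf/f and 2.67 in Acly-/- cells, 23 members were blunted rises, and 18 differed at the end alone. Retn, which encodes the adipokine resistin, stayed under 0.63 FPKM in preadipocytes of both genotypes. It had 938, 786 and 809 FPKM in Aclyf/f adipocytes and 51.5, 48.1 and 46.9 in Acly-/- adipocytes, an interaction of -4.07 (SE 0.18, adjusted p = 2.54e-09). Cfd (adipsin) and Rbp4 (retinol binding protein), the next by size, had interactions of -4.0 and -3.97. Rbp4 was lower in Acly-/- cells at both stages.

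Some lipid storage genes responded as strongly or more strongly on the log2 scale. Fabp4, the adipocyte fatty acid binding protein, had 503, 500 and 517 FPKM in Aclyf/f preadipocytes and 224, 191 and 187 in Acly-/- preadipocytes. It reached 8492, 9282 and 8733 FPKM in Aclyf/f adipocytes and 6278, 5343 and 6718 in Acly-/- adipocytes. Acly-/- cells were lower at both stages without overlap, and more so at the start than at the end, an interaction of 0.80 (SE 0.14, adjusted p = 0.000331). On plain FPKM differences its rise was smaller in Acly-/- cells. Aoc3, a copper amine oxidase of adipocytes, had the largest interaction above 0 in the list, 0.98. Lpl, lipoprotein lipase, had an interaction of 0.04 (adjusted p = 0.781) and rose by 1.15 and 1.19.

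Among adipogenic transcription factors the interaction was not of 1 kind. Of 22 members 18 were tested, 7 had a lower and 5 a higher called interaction, and the median was -0.15. The called share was 66.7%, against 50.2% of all genes tested. Mlxipl, the carbohydrate-responsive factor ChREBP, rose from at most 0.12 FPKM in any preadipocyte library to 27.3, 27.6 and 27.4 FPKM in Aclyf/f adipocytes. It reached 1.89, 2.27 and 2.07 FPKM in Acly-/- adipocytes, an interaction of -3.16 (SE 0.12, adjusted p = 9.46e-10). Srebf1, encoding SREBP-1, was blunted with an interaction of -1.56. Klf9, a Kruppel-like factor, went the other way. It rose from 33.2 ± 3.12 to 104 ± 7.6 FPKM in Aclyf/f cells and from 12.8 ± 0.52 to 89.6 ± 5.89 in Acly-/- cells (SD, n = 3), an exaggerated rise with an interaction of 1.09. Cebpd, an early C/EBP factor, also had a positive interaction, 2.33, but its locus in the table overlaps another tested gene and its value is uncertain. Pparg, chosen here after its values were seen, rose by 1.75 in Aclyf/f and 2.03 in Acly-/- cells. Its interaction of 0.28 did not pass (adjusted p = 0.0592).

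Cholesterol synthesis genes mostly rose in Aclyf/f cells and mostly fell, or had no called change, in Acly-/- cells. Of 25 members 24 were tested, and all 24 had a lower called interaction, with a median of -1.61. The median member rose by 1.42 in Aclyf/f cells and changed by -0.33 in Acly-/- cells. Reversed rises numbered 13, lost rises 6 and blunted rises 4. Pmvk (chr3:89459118-89469009), phosphomevalonate kinase, had 20.5, 18.7 and 19.6 FPKM in Aclyf/f preadipocytes and 211, 187 and 177 in Aclyf/f adipocytes. Acly-/- cells had 45.2, 48.5 and 49.2 FPKM on day 0 and 52.9, 48.3 and 53.2 on day 4. Its Acly-/- values overlapped between the days while the Aclyf/f rise was nearly 10-fold, the ratio of means being 9.79, and the interaction was -3.11 (SE 0.11, adjusted p = 6.87e-10). The 95% interval of its Acly-/- response ran from -0.06 to 0.28.

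Fdps, farnesyl diphosphate synthase, was reversed. It had 69.8, 61.5 and 56.4 FPKM in Aclyf/f preadipocytes and 267, 236 and 236 in Aclyf/f adipocytes. Acly-/- cells went from 215, 231 and 259 FPKM down to 152, 134 and 143. Their day 0 values overlapped with those of the Aclyf/f adipocytes, and the interaction was -2.67 (SE 0.13, adjusted p = 7.36e-09). In the list as a whole, 14 members crossed, 8 differed at the start alone and 1 at the end alone.

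Glycolytic genes also rose in the control and on the whole fell without Acly. All 21 members of the glucose transport and glycolysis list were tested and called, 20 lower and 1 higher, with a median interaction of -1.5. The median response was 1.34 in Aclyf/f cells and -0.39 in Acly-/- cells, 8 members were reversed rises, and 14 crossed. Pgk1, phosphoglycerate kinase, had 284, 290.2 and 280.3 FPKM in Aclyf/f preadipocytes and 909, 999 and 1027 in Aclyf/f adipocytes. It fell from 560, 486 and 563 FPKM to 327, 289 and 355 in Acly-/- cells. The 4 groups did not overlap pairwise except that Acly-/- adipocytes reached down to the level of Aclyf/f preadipocytes, and the interaction was -2.50 (SE 0.12, adjusted p = 6.82e-09). Pfkl, the liver-type phosphofructokinase, rose by 0.88 in Aclyf/f cells and fell by 1.58 in Acly-/- cells, an interaction of -2.46. Aldoc, aldolase C, was a reversed rise, from 0.66 ± 0.34 to 8.55 ± 0.47 FPKM in Aclyf/f cells and from 1.75 ± 0.12 to 0.66 ± 0.08 in Acly-/- cells (SD, n = 3). Its interaction was -3.28 (SE 0.18, adjusted p = 1.68e-08).

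Slc16a3, the lactate exporter MCT4, showed a gained fall with an equal start. Aclyf/f cells had 12.9, 14.4 and 13.4 FPKM on day 0 and 12.4, 11.99 and 11.6 on day 4. Acly-/- cells had 14.1, 11.9 and 14.1 FPKM on day 0 and 1.32, 1.72 and 1.44 on day 4. Acly-/- adipocytes lay far below every other group, and the interaction was -2.36 (SE 0.13, adjusted p = 1.42e-08). The Aclyf/f values were also slightly lower on day 4 without overlap, a response that was not called. With quantile normalization Slc16a3 was an exaggerated fall instead. Ldhb, the lactate dehydrogenase subunit that favours the heart-type enzyme, was the single member called higher, at 0.58.

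Hypoxia-responsive genes, many of which are targets of HIF factors, had 12 lower and 2 higher called interactions among 17 tested of 19, with a median of -0.92. Their called share was 82.4%, against 50.2% of all genes tested. Egln3, a HIF prolyl hydroxylase, was a lost rise. It had 0.27, 0.34 and 0.30 FPKM in Aclyf/f preadipocytes and 11.5, 15.4 and 14.5 in Aclyf/f adipocytes, and lay under 1.2 FPKM in all 6 Acly-/- libraries. The interaction was -3.87 (SE 0.23, adjusted p = 3.46e-08), although its Acly-/- response became a called fall with a pseudocount of 0.1 and without Acly-/- preadipocyte replicate 2 or Acly-/- adipocyte replicate 1. Ndrg1, a stress and differentiation gene, was reversed. It rose from 3.60 ± 0.54 to 6.92 ± 0.90 FPKM in Aclyf/f cells and fell from 20.5 ± 2.89 to 4.93 ± 1.09 in Acly-/- cells (SD, n = 3), an interaction of -2.65. Hif1a itself went the other way, with a blunted fall and an interaction of 1.31 (adjusted p = 1.80e-05).

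Mitochondrial gene groups were blunted without turning round. Pyruvate entry and TCA cycle genes had 21 lower and no higher called interactions among 28 (median -0.49), and 20 of the 21 were blunted rises, the median response being 1.4 in Aclyf/f and 0.80 in Acly-/- cells. The exception in form was Pdk1, a kinase that inhibits pyruvate dehydrogenase and responds to hypoxia. It rose by 1.79 and fell by 1.07 in the 2 genotypes, an interaction of -2.86, though its locus overlaps another tested gene. Pcx, pyruvate carboxylase, was blunted by -1.85. Respiratory chain subunits had 19 lower and no higher called interactions among 32 (median -0.48), led by Cyc1, cytochrome c1, at -1.13. Fatty acid oxidation genes had 15 lower and 1 higher among 23 tested of 24 (median -0.40). Ehhadh, the peroxisomal bifunctional enzyme, led at -2.15, and the single higher member was Cpt1a, the carnitine palmitoyltransferase that fell by 2.46 in Aclyf/f and by 1.41 in Acly-/- cells. Branched-chain amino acid catabolism had 12 lower and 1 higher among 19 (median -0.41). The share of members called was 75% for pyruvate entry and TCA cycle and 59.4% for the respiratory chain. It was 69.6% for fatty acid oxidation and 68.4% for branched-chain amino acid catabolism. Of all genes tested 50.2% were called, 26.4% of them lower and 23.7% higher as shares of genes tested. The respiratory chain share lay nearest to that of all genes.

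Cox7a1, a muscle and brown fat subunit of cytochrome c oxidase, was a lost rise. It had 1.38, 0.64 and 1.03 FPKM in Aclyf/f preadipocytes and 32.1, 34.1 and 24.6 in Aclyf/f adipocytes. Acly-/- libraries lay between 0.87 and 2.27 FPKM on both days, so the genotypes separated at the end alone, and the interaction was -4.27 (SE 0.26, adjusted p = 3.61e-08). Without Acly-/- adipocyte replicate 2 its Acly-/- response was a called fall. Of 15 brown and beige adipocyte genes 4 were tested, and all 4 were called lower (median -2.39), Slc36a2, an amino acid transporter, at -3.43 and Kcnk3, a potassium channel, at -1.34. Fgf21, also on the stress response list, was the fourth.

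Integrated stress response genes, which ATF4 drives when translation initiation is restrained, rose in all 25 tested members in Aclyf/f cells (36.5% of genes tested were called higher there). Their interaction was called lower in 21 and higher in none (median -1.62), and 16 of the 21 were blunted rises. The median response was 2.31 in Aclyf/f and 0.53 in Acly-/- cells. Trib3 (chr2:152337425-152344060), a pseudokinase induced by ATF4, had 2.22, 1.47 and 1.85 FPKM in Aclyf/f preadipocytes and 38.3, 39.2 and 61.3 in Acly-/- preadipocytes. On day 4 it had 144, 134 and 134 FPKM in Aclyf/f and 121, 97.9 and 95 in Acly-/- cells. The genotypes were far apart at the start and close at the end, and the interaction of -4.43 (SE 0.22, adjusted p = 7.45e-09) was made up of a genotype difference of 4.03 in preadipocytes and -0.40 in adipocytes. Mthfd2, a mitochondrial folate enzyme, and Chac1, a glutathione-degrading enzyme, repeated this with interactions of -2.64 and -2.46. At the start 23 of 25 members were higher in Acly-/- cells (19.7% of genes tested were), and at the end 9 were higher (25.6%) and 8 lower (29.2%).

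The core of the element that ATF4 binds with C/EBP partners was searched as TGATGCAA on both strands of promoter windows of 250 bases before to 50 after the RefSeq start (build GRCm38.p6, the same coordinates as mm10), with 1 window per gene, at its most upstream start. It was found in 4 of 21 list members with a window (19.0%), in 1.39% of blunted rises, in 0.603% of the 8957 tested genes with a window and in 0.929% of all 27025 windows. A pair of these stretches is shown, chosen after values were seen, because the genes rose together less in Acly-/- cells; they come from chr2:119351029-119351076 on the plus strand and chr7:126625553-126625600 on the minus strand, and capitals mark the match.
Chac1: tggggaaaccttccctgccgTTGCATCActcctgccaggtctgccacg
Nupr1: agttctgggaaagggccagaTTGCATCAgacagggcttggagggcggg
Nupr1, a stress-induced chromatin protein, rose from 59.2 ± 7.22 to 417 ± 39.1 FPKM in Aclyf/f cells and from 129 ± 15.9 to 305 ± 6.47 in Acly-/- cells (SD, n = 3), an interaction of -1.55 (SE 0.15, adjusted p = 2.33e-06). A match describes these letters and shows no binding. Other motifs were searched in the same windows, among them the E-box and the CCAAT box. The sterol regulatory element was found in 1 of 17 cholesterol synthesis genes and 0 of 18 fatty acid synthesis genes, against 1.06% of tested genes. The DR1 nuclear receptor element was found in 0 of 20 mature adipocyte genes, against 0.223%. At shares this low, 0 matches in 18 or 20 windows cannot tell these lists from other genes. The CHR element was found in 10 of 27 cell cycle genes, against 11.6%. A window at the most upstream start can lie outside the locus given here, as it does for Pmvk.

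Contractile genes and targets of TGF-beta or YAP fell less in Acly-/- cells. Of 21 members 20 were tested, 17 had a higher and 1 a lower called interaction (90% called, median 1.34), and 14 were blunted falls. The median member fell by 2.2 in Aclyf/f and by 0.93 in Acly-/- cells. In Acly-/- preadipocytes 14 members were called lower and 2 higher (22.4% and 19.7% of genes tested were). In Acly-/- adipocytes 15 were called higher and 1 lower (25.6% and 29.2%). Of the called members 9 crossed, 4 differed at the start alone and 4 at the end alone. Acta2 (chr19:34240336-34255373), smooth muscle actin, had a mean of 401 ± 7.73 FPKM (SD, n = 3) on day 0 in Aclyf/f cells, and 24.4, 14.3 and 13.4 FPKM in Aclyf/f adipocytes. Acly-/- cells went from 120, 135 and 133 FPKM to 40.5, 45.1 and 48.8, below the control at the start and above it at the end without overlap. The interaction was 2.99 (SE 0.23, adjusted p = 2.66e-07). Myl9, a myosin light chain, differed at the start alone: 152, 141 and 132 FPKM in Aclyf/f against 25.4, 34.2 and 31.4 in Acly-/- preadipocytes. Its adipocyte values were 5.78, 2.45 and 1.78 FPKM in Aclyf/f and 3.98, 6.06 and 5.17 in Acly-/- cells and overlapped, and the interaction was 2.77 (SE 0.35, adjusted p = 2.62e-05). Cnn1, calponin 1, followed at 2.5. The 7 smooth muscle and pericyte markers summed to 2.85 to 3.48 FPKM in Aclyf/f and 1.51 to 2.19 in Acly-/- preadipocytes, and rose to 27.9 to 29.8 and 6.61 to 6.92 in the adipocytes, mostly through Mcam and Myh11. Notch3, a receptor on the same list, was a lost fall. It went from 1.81 ± 0.12 to 0.94 ± 0.06 FPKM in Aclyf/f cells and from 1.12 ± 0.21 to 0.94 ± 0.19 in Acly-/- cells (SD, n = 3), an interaction of 0.41 (SE 0.15, adjusted p = 0.0348). The part of such cells in the contractile result was not tested.

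The CArG box, the site of serum response factor, was found on either strand in 4 of 16 contractile list members with a window (25%), in 3.11% of blunted falls and in 1.36% of tested genes. The matches of 3 of these windows are shown for genes that had a blunted fall, chosen after values were seen, all on the plus strand, at chr2:156775283-156775332, chr10:79988524-79988573 and chr14:20929151-20929200, with the box in capitals.
Myl9: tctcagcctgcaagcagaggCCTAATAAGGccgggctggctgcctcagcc
Cnn2: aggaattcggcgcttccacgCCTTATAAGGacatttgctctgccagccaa
Vcl: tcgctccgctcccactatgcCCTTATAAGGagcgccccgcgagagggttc
Cnn2, calponin 2, and Vcl, vinculin, which links actin to adhesions, had interactions of 1.63 and 1.33. Srf, which encodes serum response factor, fell by 1.82 in Aclyf/f and by 0.95 in Acly-/- cells, an interaction of 0.87 (adjusted p = 0.000191).

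Extracellular matrix genes followed the contractile ones. Of 39 members 35 were tested, 24 with a higher and 2 with a lower called interaction (median 0.90). The called share was 74.3%, against 50.2% of all genes tested. The median member changed by -1.64 in Aclyf/f and -0.33 in Acly-/- cells. Mmp2 (chr8:92827328-92853420), gelatinase A, was a reversed fall. It had 69.3, 73.4 and 69.7 FPKM in Aclyf/f preadipocytes and 15.5, 11.2 and 11 in Aclyf/f adipocytes. Acly-/- cells rose from 28.2, 25.7 and 29.9 to 43.4, 49.8 and 41.1 FPKM. The order of the genotypes turned over with no overlap at either stage, and the interaction was 3.08 (SE 0.16, adjusted p = 1.10e-08). Mmp14, the membrane protease that activates gelatinase A, was a lost fall at 2.69. Lama4, a laminin chain of basement membranes that rose in Aclyf/f cells, was called lower at -2.75.

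Of 21 preadipocyte genes 13 were tested and all 13 were called, 9 higher and 4 lower (median 1.15). Blunted falls numbered 7 and lost falls 2, while 3 were exaggerated falls and 1 a gained fall. Members called lower included Sox9, an exaggerated fall, and Wnt10b, the gained fall. With a pseudocount of 0.1 the calls were 9 higher and 1 lower, and Sox9 was not called. Cxcl12, Igfbp5, Sox4 and Prl2c2, given below, are not on this list and were named for having the largest interactions of their forms. Cxcl12 (chr6:117168535-117181368), a stromal chemokine of the inflammatory and acute-phase list, had 1632, 1656 and 1651 FPKM in Aclyf/f preadipocytes. It had 13.5, 9.13 and 9.95 FPKM in Aclyf/f adipocytes. Acly-/- cells went from 385, 430.0 and 350.0 FPKM to 26.1, 29.4 and 21.7. It crossed without overlap at either stage, with an interaction of 3.27 (SE 0.18, adjusted p = 1.94e-08). Igfbp5, an insulin-like growth factor binding protein, crossed as well, at 3.51. Pdgfra, a progenitor growth factor receptor on the list, fell from 131 ± 8.63 to 15.5 ± 0.41 FPKM in Aclyf/f cells and from 72.1 ± 7.08 to 30.3 ± 2.17 in Acly-/- cells (SD, n = 3), an interaction of 1.78. Sox4, a progenitor transcription factor, was a lost fall. Aclyf/f cells dropped from 52.4, 54.5 and 47.5 to 5.06, 3.08 and 2.69 FPKM, while Acly-/- cells had 15.2, 17.5 and 22.6 on day 0 and 17.2, 23.6 and 14.9 on day 4. Its interaction was 3.54 (SE 0.27, adjusted p = 3.04e-07). Prl2c2, a proliferin of a family of near-identical copies, had a lost fall of 3.84, and its reads may belong to its copies.

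**Figure D3:**
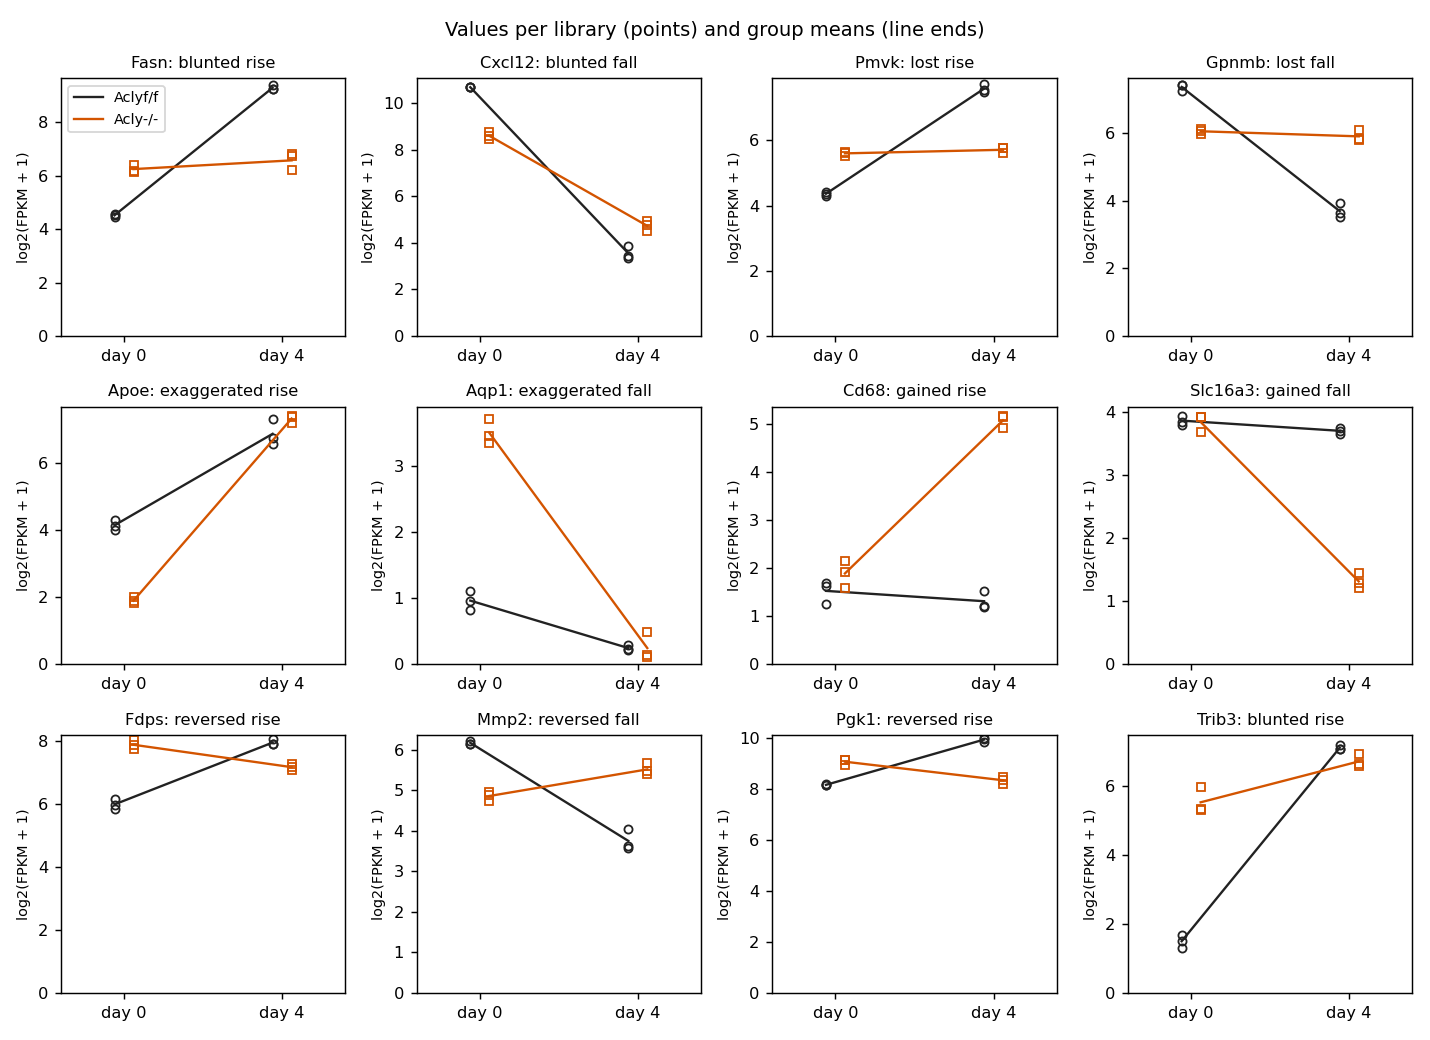
Points are the log2(FPKM + 1) values of single libraries on day 0 and day 4 (horizontal axis), and lines join the means of each genotype. Crossing lines, as in Fasn, Mmp2 and Fdps, show genotypes that changed order, while Slc16a3 and Cd68 start together and separate on day 4.

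Lysosomal genes moved, at their median, in opposite directions in the 2 genotypes. Of 32 members 31 were tested, 24 had a higher and 1 a lower called interaction (80.65% called, median 0.84). The median response was -0.30 in Aclyf/f and 0.35 in Acly-/- cells. Reversed falls numbered 9, and 13 members crossed. Gpnmb (chr6:49036518-49058182), a glycoprotein of lysosomes and melanosomes, had 170.3, 170.0 and 151 FPKM in Aclyf/f preadipocytes and 14.2, 11.4 and 10.4 in Aclyf/f adipocytes. Acly-/- cells had 61.3, 65.9 and 69.3 FPKM on day 0 and 54.7, 67.5 and 55.1 on day 4. Only the control response was called, the Acly-/- values of the 2 days overlapped, and the interaction was 3.52 (SE 0.15, adjusted p = 2.61e-09). Cd68 (chr11:69664213-69666170), a lysosomal membrane protein common in macrophages, was a gained rise. It had 1.38, 2.24 and 2.11 FPKM in Aclyf/f and 3.44, 2.01 and 2.80 in Acly-/- preadipocytes. In adipocytes it had 1.90, 1.33 and 1.27 FPKM in Aclyf/f and 34.4, 29.0 and 34.4 in Acly-/- cells. Acly-/- adipocytes alone stood high, with an interaction of 3.39 (SE 0.22, adjusted p = 7.78e-08).

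The sum of the 12 macrophage and leukocyte markers did not rise with Cd68, although single markers differed. Cd14, the most abundant, fell from 3.32 to 1.46 FPKM in Acly-/- cells and from 3.63 to 1.36 in Aclyf/f cells. Fcer1g rose from 0.22 to 0.87 FPKM in Acly-/- cells and from 0.16 to 0.78 in Aclyf/f cells. The part of such cells in the Cd68 rise was not tested. The 12 markers summed to 3.99 to 5.88 FPKM in Aclyf/f and 4.13 to 7.28 in Acly-/- preadipocytes, and to 2.13 to 3.22 and 3.09 to 3.43 in the adipocytes. Ctsk, the cysteine protease cathepsin K, was a reversed fall. Aclyf/f cells went from 91.6, 88.2 and 81.4 down to 21.0, 19.3 and 18.3 FPKM, and Acly-/- cells from 56.1, 60.8 and 61.0 up to 91.1, 82.3 and 83.1. The interaction was 2.62 (SE 0.11, adjusted p = 1.47e-09). Ctsa, the lysosomal protective protein cathepsin A, was reversed at 1.48. The single member called lower was Tfeb, which encodes a master regulator of lysosomal genes. It rose by 1.54 in Aclyf/f and by 0.60 in Acly-/- cells, an interaction of -0.94 (adjusted p = 0.00185).

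The CLEAR element bound by TFEB and its relatives was searched as TCACGTGA on both strands; it contains the shorter E-box CACGTG. It was found in 4 of 25 lysosomal members with a window (16.0%), in 3.96% of reversed falls, in 3.42% of gained rises and in 2.1% of tested genes. A pair of members whose interaction was higher is shown, chosen after values were seen, both on the minus strand, at chrX:134601173-134601253 and chr7:142387899-142387946, with the element in capitals.
Gla: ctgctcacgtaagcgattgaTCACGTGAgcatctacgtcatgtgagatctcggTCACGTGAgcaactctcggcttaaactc
Ctsd: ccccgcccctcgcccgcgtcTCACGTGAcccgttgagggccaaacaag
Gla, alpha-galactosidase A, had 13.8, 14.3 and 13.0 FPKM in Aclyf/f and 7.91, 8.31 and 8.23 in Acly-/- preadipocytes, then 6.2, 5.89 and 6.23 in Aclyf/f and 10.1, 10.6 and 11.5 in Acly-/- adipocytes. Ctsd, cathepsin D, rose by 0.39 in Aclyf/f and 1.41 in Acly-/- cells. Their interactions were 1.4 and 1.02.

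Exaggerated rises included secreted lipid and acute-phase proteins. Apoe (chr7:19696244-19699188), the apolipoprotein of lipid transport, had 15.1, 19.0 and 16.4 FPKM in Aclyf/f and 2.53, 2.68 and 3.02 in Acly-/- preadipocytes. It reached 158, 106 and 94.6 FPKM in Aclyf/f and 147, 168 and 166 in Acly-/- adipocytes. The genotypes were apart at the start and overlapped at the end, and the interaction was 2.70 (SE 0.21, adjusted p = 3.77e-07). Lbp, which binds bacterial lipopolysaccharide, started lower in Acly-/- cells, at 0.36 ± 0.07 against 3.67 ± 0.48 FPKM, and ended higher, at 18.4 ± 1.02 against 12.2 ± 0.99 (SD, n = 3), an interaction of 2.34. Saa3, an acute-phase serum amyloid, had 3.31, 2.14 and 1.21 FPKM in Aclyf/f and 21.6, 21.9 and 17.7 in Acly-/- adipocytes. Its interaction was 3.09 (SE 0.41, adjusted p = 3.94e-05), with the reservation that close family members may share its reads.

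Exaggerated falls, 2.51% of genes tested, included 16 of 34 cell cycle genes and 7 of 32 interferon-stimulated genes. Aqp1, a water channel, fell from 0.96 ± 0.19 to 0.19 ± 0.04 FPKM in Aclyf/f cells and from 10.4 ± 1.54 to 0.20 ± 0.18 in Acly-/- cells (SD, n = 3), an interaction of -2.54 that came from the start. Ube2l6, the conjugating enzyme for the ubiquitin-like protein ISG15, had 25.5, 29.2 and 24.9 FPKM in Aclyf/f and 101, 132 and 158 in Acly-/- preadipocytes. It ended at 13.7, 12.1 and 11.7 FPKM in Aclyf/f and 20.8, 20.1 and 22.3 in Acly-/- adipocytes. Acly-/- cells were above the control at both stages without overlap, and the interaction was -1.52 (SE 0.18, adjusted p = 1.73e-05).

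Interferon-stimulated genes, the antiviral programme downstream of interferon receptors, were called higher in Acly-/- cells in 31 of 32 members in preadipocytes and in 31 of 32 in adipocytes, against 19.7% and 25.6% of all genes tested. The interaction was called lower in 15 and higher in 3, close to the share of all genes called (56.3% of members against 50.2%), with a median of -0.49. All 18 called members differed in the same direction at both stages. Herc6, an E3 ligase for ISG15, had the largest interaction of the list, -1.48. Oas2, an oligoadenylate synthetase of a family of similar genes, was called higher, at 1.14.

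The core of the interferon-stimulated response element, searched as GAAA, any 2 bases, then GAAA on either strand, was found in 10 of 22 of these genes with a window (45.5%). Among the forms it was found in 9.63% of exaggerated falls and 7.72% of gained falls, against 3.13% of tested genes. The stretches shown belong to genes with a gained fall, chosen after values were seen, both on the minus strand, at chr5:120777705-120777754 and chr12:26456543-26456592, with the core in capitals.
Oas3: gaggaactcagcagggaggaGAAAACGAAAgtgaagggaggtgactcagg
Rsad2: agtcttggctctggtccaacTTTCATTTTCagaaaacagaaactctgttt
Rsad2, which encodes the antiviral enzyme viperin, fell by 0.19 in Aclyf/f and by 0.85 in Acly-/- cells, of which the second was called, and its interaction was -0.66 (adjusted p = 0.0165). Oas3 belongs to the same family as Oas2, and its interaction was -1.26.

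Cell cycle genes fell further in Acly-/- cells. All 34 members were tested, 30 had a lower and 2 a higher called interaction (94.1% called, median -0.68). The median response was -0.26 in Aclyf/f and -1.01 in Acly-/- cells. There were 16 exaggerated and 10 gained falls, and 20 members differed at the end alone. Cdt1, a replication licensing factor, had the largest interaction and another form. It had 34.5, 36.1 and 30.8 FPKM in Aclyf/f preadipocytes and 82.6, 83.1 and 83.4 in Aclyf/f adipocytes, and 32.9, 34.1 and 46.8 then 35.4, 36.4 and 34.7 in Acly-/- cells. Aclyf/f adipocytes alone stood apart, a lost rise with an interaction of -1.35 (SE 0.15, adjusted p = 1.03e-05). Cdc6, which loads the replicative helicase, and Mybl2, a regulator of late cell cycle genes, had interactions of -1.14 and -1.09.

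**Figure D4:**
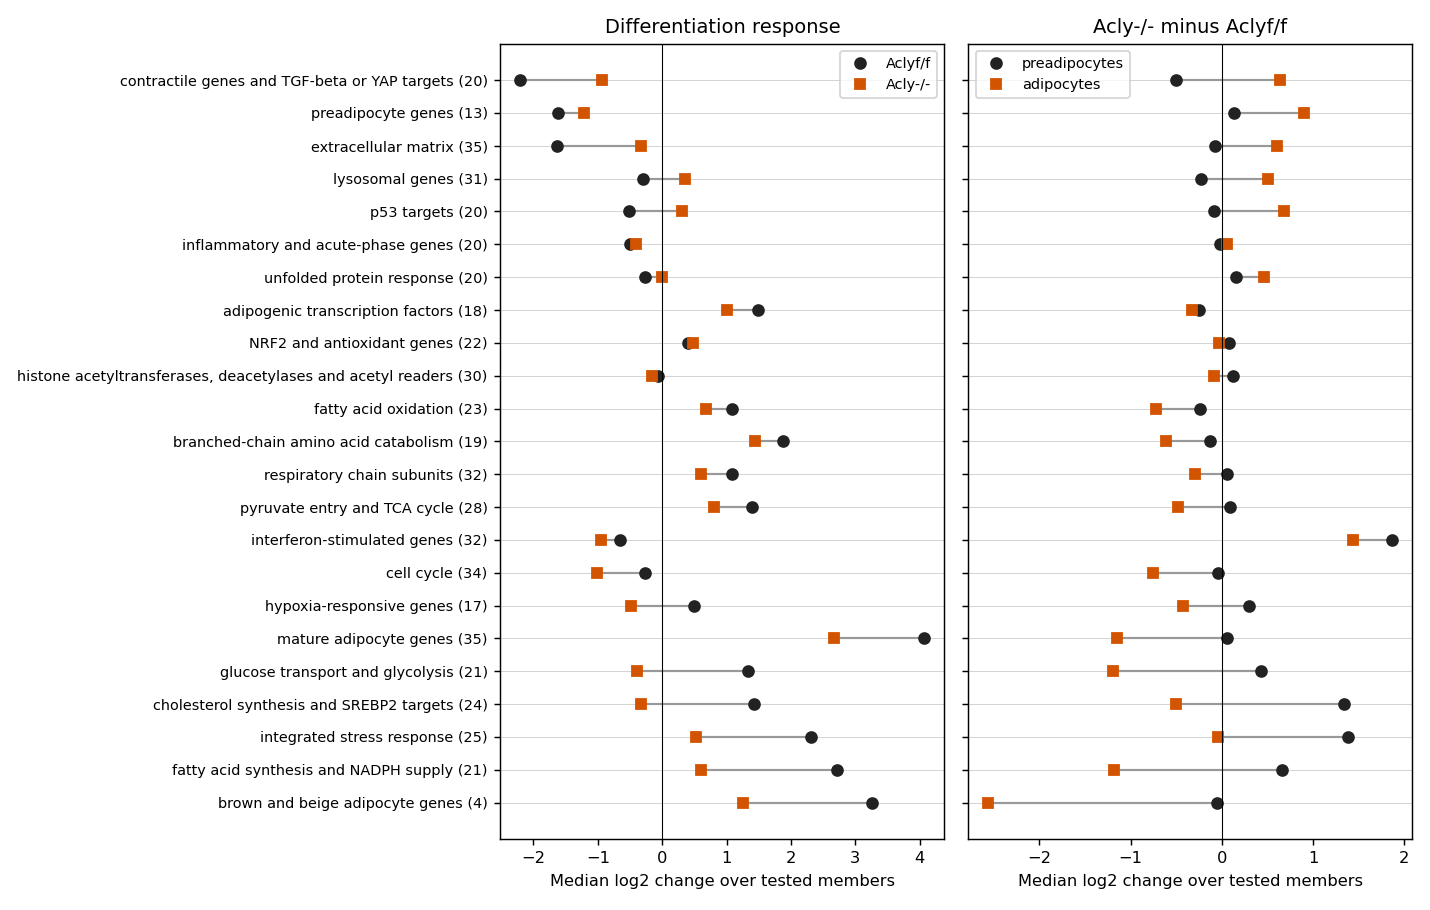
Each line is a gene list with its number of tested members, ordered by median interaction; the left panel gives the median log2 response of Aclyf/f and Acly-/- cells, the right panel the median Acly-/- minus Aclyf/f difference in preadipocytes and adipocytes. Cholesterol synthesis moves from 1.42 to -0.33 between genotypes, and its genotype difference from 1.34 in preadipocytes to -0.50 in adipocytes.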

How the data were processed

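The deposited table holds FPKM in 1 column per library, per the file headers; per the submitters' processing notes, Bowtie2 2.2.6, Cufflinks 2.2.1, bcl2fastq and build mm10 were used, in roles that are not stated. The authors' filter, annotation and strand handling were not given in the sources used here, and overlapping and antisense genes cannot be told apart. No value is under 0.01, and 9384 to 10418 genes per library sit on it. The table holds no counts, and precision is limited by 3 libraries per group. FPKM were used as deposited, as log2(FPKM + 1), with 4 group means and moderated variances that follow a trend (limma 3.58.1, R 4.3.3). Gene p-values come from limma with Benjamini-Hochberg adjustment over the 11777 genes tested within a contrast, called under 0.05. Log2 changes understate those of low genes. Summaries used Python 3.11.15, numpy 2.4.6, pandas 2.3.3 and matplotlib 3.10.9. The fit was tested on simulated data.

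Named genes are, per form, the 3 largest absolute interactions of protein-coding genes with a group mean of at least 5 FPKM and no overlapping tested locus, per list the 3 largest and up to 2 in the opposite direction, and per stage class the 2 largest; some genes these rules pick are not reported here. Members and lists were chosen with earlier results of these data known; other genes named (Pparg, Srf, Vcl, Cnn2, Nupr1, Gla, Ctsd, Oas3, Rsad2) were chosen after their values were seen. Alternatives were another pseudocount, other filters, 3 rescalings, variance without a trend, other form definitions, a replicate block and leaving out each library.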

Additional observations from a re-analysis of the deposited data

Results flagged for a closer look

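The differentiation response differed between genotypes, by limma's test of the difference itself, in 5908 genes. By form, the largest of these log2 differences among protein-coding genes with a group mean of at least 5 FPKM and no overlapping tested locus were as follows; genes outside these limits had larger values in some forms. Blunted rises were led by Thrsp (-5.40), Fasn (-4.45) and Trib3 (-4.43), and blunted falls by Igfbp5 (3.51), Cxcl12 (3.27) and Acta2 (2.99). Lost rises were led by Cox7a1 (-4.27), Egln3 (-3.87) and Pmvk (-3.11), and lost falls by Prl2c2 (3.84), Sox4 (3.54) and Gpnmb (3.52). Exaggerated rises were led by Saa3 (3.09), Apoe (2.70) and Lbp (2.34), and exaggerated falls by Aqp1 (-2.54), Fxyd5 (-1.86) and Ube2l6 (-1.52). Gained rises were led by Cd68 (3.39), Aspa (2.24) and Serpinb9e (2.00), the last a member of a family of similar genes, and gained falls by Prelid2 (-2.57) and Slc16a3 (-2.36). Reversed rises were led by Aldoc (-3.28), Fdps (-2.67) and Ndrg1 (-2.65), and reversed falls by Mmp2 (3.08), Gem (3.04) and Ctsk (2.62). Gem was a gained rise instead with a pseudocount of 0.1, with no filter, with a replicate block and without any 1 of 6 libraries, and Fxyd5 was a gained fall with no filter and without any 1 of 4 Aclyf/f libraries. Genes with no called response were led by Sac3d1 (-0.60), Zfp367 (-0.60) and Zfp770 (0.60). Sac3d1 lost its interaction call in 3 alternative settings and without any 1 of 7 libraries, and Zfp367 in 3 settings and without any 1 of 9 libraries.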

How the results depend on the processing

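Interaction calls numbered 5908 as reported, 4974 to 6030 over the other settings and 5310 to 5831 when 1 library was left out (5618 without the third Acly-/- preadipocyte library). Quantile normalization gave 51.3% of calls higher against 47.3% as reported. A replicate block gave 5516 calls; same-numbered libraries did not deviate together (r from -0.41 to 0.15 over 18 pairs, and 0 of 12 libraries correlated best with its own number), so numbers were not taken to pair libraries. Restricting forms to an absolute interaction of at least 1, which leaves fewer genes, gave 344 blunted rises, 287 blunted falls, 202 lost rises, 153 lost falls, 34 exaggerated rises, 36 exaggerated falls, 53 gained rises, 56 gained falls, 147 reversed rises, 142 reversed falls and 5 without a called response. Forms set by the retained share gave 476 reversed rises and 457 reversed falls. With no filter 7 brown and beige genes were called, since more were tested. Over the settings 82.7% to 99.3% of called genes kept their form. No named gene changed direction. With other settings 10 of them lost their call, in 17 pairs of gene and setting. Without 1 library 6 lost it, in 38 pairs of gene and library left out. All list medians kept their sign under the other pseudocount and the 3 rescalings. Low genes rest on few fragments, so forms of genes near 1 FPKM are the least certain.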

Other observations

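Target genes of p53, which the tumour suppressor activates in DNA damage and other stress, had a median change of -0.51 in Aclyf/f and 0.31 in Acly-/- cells. All cells here were SV40-immortalised, and whether p53 itself was active in them was not tested. Of 21 members 20 were tested, 13 had a higher and 2 a lower called interaction (23.7% and 26.4% of all genes tested were called), and the median was 0.59. Eda2r, a death receptor family member, had 15.5, 16.3 and 17.6 FPKM in Aclyf/f preadipocytes and 3.70, 4.13 and 4.74 in Aclyf/f adipocytes. Acly-/- cells had 20.2, 20.5 and 18.0 FPKM on day 0 and 20.9, 22.5 and 17.9 on day 4. The control fell without overlap, the Acly-/- values of the 2 days overlapped, and the interaction was 1.81 (SE 0.14, adjusted p = 3.70e-07). Fas, the death receptor CD95, was a lost fall at 2.19. The opposite direction was found in Bbc3, which encodes the pro-apoptotic protein PUMA, at -0.70, and in the DNA repair gene Ddb2, at -0.56.

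The unfolded protein response list was divided: 9 of 20 members were called higher and 6 lower (75% called against 50.2% of all genes). The chaperones Calr (1.23) and Pdia3 (1.19) fell in Aclyf/f cells and kept their level or fell less in Acly-/- cells, while Herpud1 (-1.57) and the sensor Ern1 (-1.16) rose less or fell. Inflammatory and acute-phase genes had 10 higher and 3 lower called interactions among 20 tested of 22 (65.0% called), with Ccl2, a monocyte chemokine, falling by 6.63 in Aclyf/f and by 4.20 in Acly-/- cells. NRF2 and antioxidant genes had 4 higher and 8 lower among 22, a called share of 54.5% that is near that of all genes, with Gpx3 at 1.35 and Hmox1 at -1.06. Histone acetyltransferases, deacetylases and acetyl readers had 2 higher and 12 lower among 30 tested of 31 (median -0.18), a share of 46.7% called against 50.2% of all genes, led by the deacetylases Sirt3 (-1.23) and Sirt6 (-0.93).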
